A study of Homo sapiens with 4 samples.

Results

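The myotubularins are a family of lipid phosphatases and their inactive relatives, and 10 of them were followed here in A549 cells, a human lung adenocarcinoma line: MTMR1, MTMR2, MTMR3, MTMR4, MTMR6, MTMR9, MTMR10, MTMR12, MTMR14 and SBF1. They were taken by name from the expression table of 17041 genes and matched by Ensembl gene ID, and all 10 were found. In the splicing table of 3768 junction events, 5 events belonged to 2 of them, MTMR1 with 4 and MTMR14 with 1. The family was chosen by the PSI of an MTMR1 exon, the share of reads that include it, which was already known to differ between the groups of these libraries. The PSI values that follow are therefore a description and carry no test.

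The study sequenced polyadenylated RNA from 2 libraries of RBM10 wild-type cells and 2 libraries of RBM10 knockdown cells. RBM10 binds pre-mRNA and influences which exons are kept, and the knockdown cells carried a lentiviral shRNA against it and were selected with puromycin for 10 to 14 days. The labels do not divide the 4 libraries into batches. The labels name no control construct or puromycin for the wild-type cells, so RBM10 loss cannot be told apart from transduction and selection. Per the labels, each library was sequenced to about 40000000 stranded read pairs of 100 bp. The knockdown rests on 1 shRNA, and separate cultures are not stated for the replicates, so a p-value reflects library-to-library spread that may be technical.

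Active myotubularins remove the 3-phosphate from 2 inositol lipids of endosomes and autophagosomes, phosphatidylinositol 3-phosphate and phosphatidylinositol 3,5-bisphosphate. The inactive members keep the fold of the phosphatase without its catalytic residues, and several of them bind an active member and change its activity or location. The founding gene, MTM1, is mutated in a congenital muscle disease, and transcripts of its close relative MTMR1 are spliced differently in muscle and in other tissues.

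Among the family's events, PSI differed most between the groups at an MTMR1 exon, E19.1 in the numbering of the authors' deposited table. It spans chromosome X, 150751030 to 150751240 (hg38, plus strand), is 211 bases long and lies between exons E18.1 and E20.1. In GENCODE v29, 2 of the 14 MTMR1 transcripts hold this exact exon, and both are annotated as subject to nonsense-mediated decay, the pathway that degrades mRNAs whose reading frame ends too early. Its length is not a multiple of 3, and the reading frame that enters it from E18.1 meets a stop codon after 16 codons. In the MTMR1-209 transcript the stop codon lies at 150751078 to 150751080, with 160 bases of the exon and 3 further exons behind it. The reading frame there has 568 codons, against 665 in MTMR1-202, which skips the exon. The authors' deposited table gives the same 2 protein lengths for both events of the exon, and names nonsense-mediated decay and the myotubularin phosphatase domain beside them.

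The sequences below show where the 2 splice choices part. Each junction is given as 30 bases of E18.1 in lower case and, in capitals, 30 bases of the exon that follows. The part of E19.1 that is translated is shown up to its in-frame stop codon in capitals. The donor end of E19.1 is shown with the leading bases of the intron in capitals, read from a GENCODE transcript that retains this intron. All are 5′ to 3′ on the plus strand of hg38.
MTMR1 skipping junction, E18.1 to E20.1: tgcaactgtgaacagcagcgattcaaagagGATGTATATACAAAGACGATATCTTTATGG
MTMR1 inclusion junction, E18.1 to E19.1: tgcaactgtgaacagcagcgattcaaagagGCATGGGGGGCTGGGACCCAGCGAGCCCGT
MTMR1 E19.1 from its start to the stop codon: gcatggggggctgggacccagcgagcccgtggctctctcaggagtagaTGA
MTMR1 E19.1 donor end: aaaagcccactttagGTagcaagctaacac

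For an examined junction, PSI gives its share of the reads over a set of junctions that the authors chose. The junction from E18.1 into E19.1 (chromosome X, 150750843 to 150751030) had a PSI of 23.5% and 11.8% in wild-type replicates 1 and 2, and of 71.4% and 80.0% in knockdown replicates 1 and 2. Both knockdown libraries lay above both wild-type libraries, and the groups did not overlap, though only a few reads may lie behind each value. The means were 17.6% ± 8.32 in wild type and 75.7% ± 6.06 in knockdown (SD, n = 2 each), a difference of 58.1 percentage points. The knockdown library with the lower value and the wild-type library with the higher one were still 47.9 points apart. The start of E19.1 was thus joined to E18.1 in most of the reads counted in knockdown and in a minority of those counted in wild type.

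The junction that skips the exon, from E18.1 to E20.1 (150750843 to 150755689), mirrored this, at 76.5% and 88.2% in wild type and 28.6% and 20.0% in knockdown. Its PSI fell by 58.1 points between the group means. Each of the 2 junctions is the other's background in the authors' deposited table, so the pair is one measurement and not a repeat. No listed event of MTMR1 examined the junction from E19.1 to E20.1, so the exon's far end was not measured. The table gives no read counts, so the depth behind each PSI is not known and no interval was computed. The PSI values of both junctions equal ratios of small whole numbers, so only a few reads may lie behind them.

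**Figure D1:**
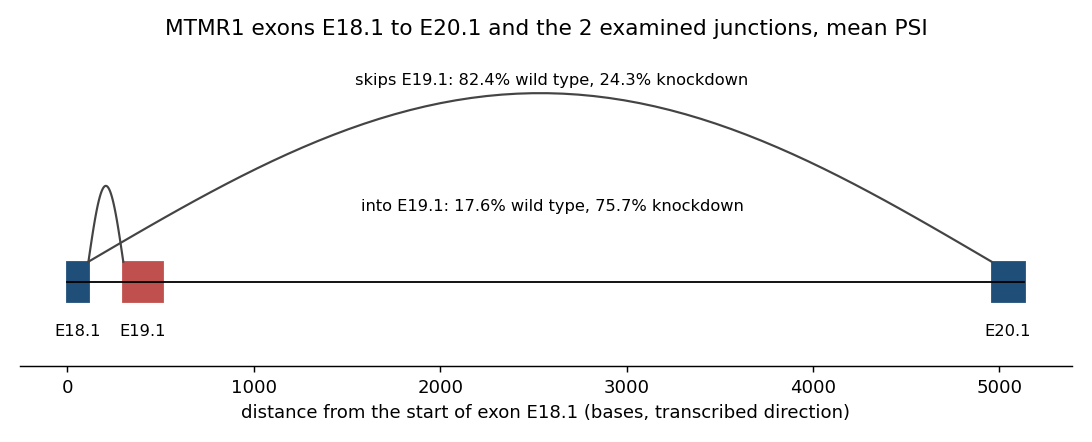
Exons E18.1, E19.1 and E20.1 of MTMR1 drawn to scale along the distance in bases from the start of E18.1, with an arc for each examined junction and its mean PSI in each group (n = 2 libraries each). The short arc into E19.1 carries 17.6% in wild type and 75.7% in knockdown, and the long arc that skips it 82.4% and 24.3%.

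Among all 3744 events with a value in every library, 12 had a difference between group means at least as large as that of the MTMR1 exon (0.321% of events), counting its own pair of junctions. Of those, 5 were cassette-exon events. The exon was chosen for this same difference, so its rank is a description and not a test. Only a few reads may lie behind its values. The median absolute difference was 14.4 points over all these events and 15 points over the 1700 cassette-exon events. The table lists only events whose spread, as given by the authors, is at least 0.15, so these medians describe listed events.

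**Figure D2:**
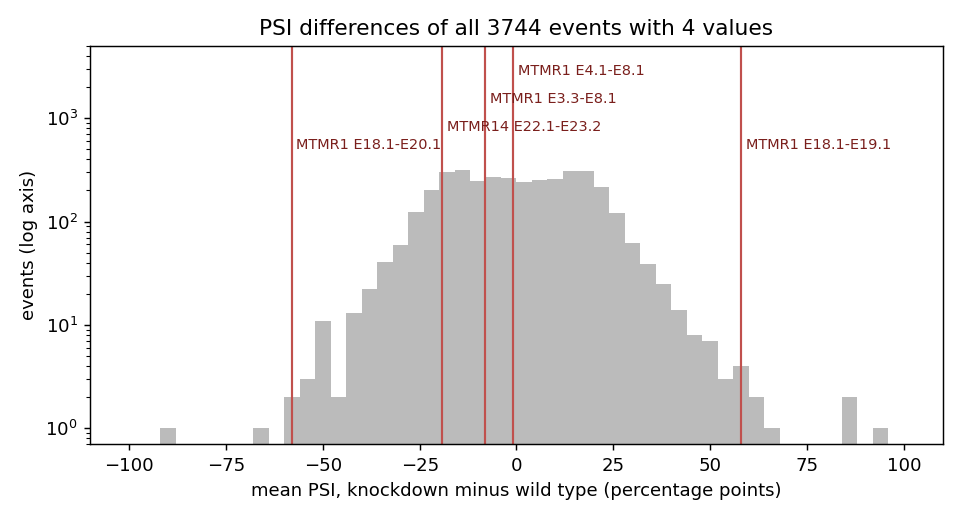
Histogram of the difference in mean PSI between knockdown and wild type, in percentage points, over the 3744 events with 4 PSI values, with the number of events on a log axis and vertical lines at the 5 events of the family. The paired MTMR1 lines at 58.1 and -58.1 points lie near the edges of the distribution, while the other 3 lie in its bulk.

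The other MTMR1 exon in the table, E4.1, did not separate the groups. It is a short exon of 24 bases (chromosome X, 150712342 to 150712365), in frame at 8 codons, that 7 of the 14 annotated transcripts hold, all of them coding. It lies in a stretch where the annotated MTMR1 transcripts differ, and it is shown because the exon adds codons without ending the frame, unlike E19.1.
MTMR1 E4.1: gttttcaggaggcctgatctaagg
The junction out of E4.1 into E8.1 had a PSI of 28.2% and 11.5% in wild type and of 30.3% and 7.69% in knockdown. The replicates of each group were farther apart than the group means, which were 19.9% ± 11.8 and 19.0% ± 16.0 (SD, n = 2 each). The junction that skips E4.1, from E3.3 to E8.1, was at 53.7% and 71.9% in wild type and at 52.3% and 57.1% in knockdown, and the groups overlapped. The 2 junctions were set against different background junctions by the authors, so their PSI need not add up to 100%.

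MTMR14, also known as Jumpy, is an active phosphatase that has been linked to autophagy and to muscle disease. Its listed event concerns exon E22.1 (chromosome 3, 9697711 to 9697866, hg38, plus strand), which has 156 bases, or 52 codons in frame. In GENCODE v29, 3 of the 13 MTMR14 transcripts hold this exact exon, and their types include both protein coding and nonsense-mediated decay. The exon is printed here because its loss from the coding transcripts shortens the protein without ending the frame.
MTMR14 E22.1: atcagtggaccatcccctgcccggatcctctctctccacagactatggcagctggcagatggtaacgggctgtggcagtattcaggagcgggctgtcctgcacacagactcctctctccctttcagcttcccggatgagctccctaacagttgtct
The junction from E22.1 to E23.2 had a PSI of 54.8% and 57.4% in wild type and of 35.4% and 38.6% in knockdown. The groups did not overlap, and the means, 56.1% ± 1.79 and 37.0% ± 2.25 (SD, n = 2 each), differed by -19.1 points, with -16.3 points between the nearest libraries of the groups. A difference of this size or larger was seen in 1090 of the 3744 events (29.1%).

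The background junction of the MTMR14 event, E19.1 to E23.2 of that gene, skips E22.1 together with the 180-base exon before it (60 codons). In GENCODE v29 the MTMR14-201 transcript holds both exons and has 650 codons, MTMR14-203 lacks E22.1 and has 598, and MTMR14-202 lacks both and has 538. The authors' deposited table names proteins of 538 and 650 amino acids for the event. No listed event of MTMR14 examined the junction that MTMR14-203 uses.

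Over the 5 family events, 3 had groups that did not overlap and a mean difference of 10 points or more, of which 2 are the pair at the MTMR1 exon. By the same rule 53.5% of all 3744 events were past it. The family was chosen on the difference of this pair, which is one measurement counted at 2 junctions. The family's count therefore cannot show whether it is like or unlike the table. The values of every library are drawn in the plot of junction events.

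**Figure D3:**
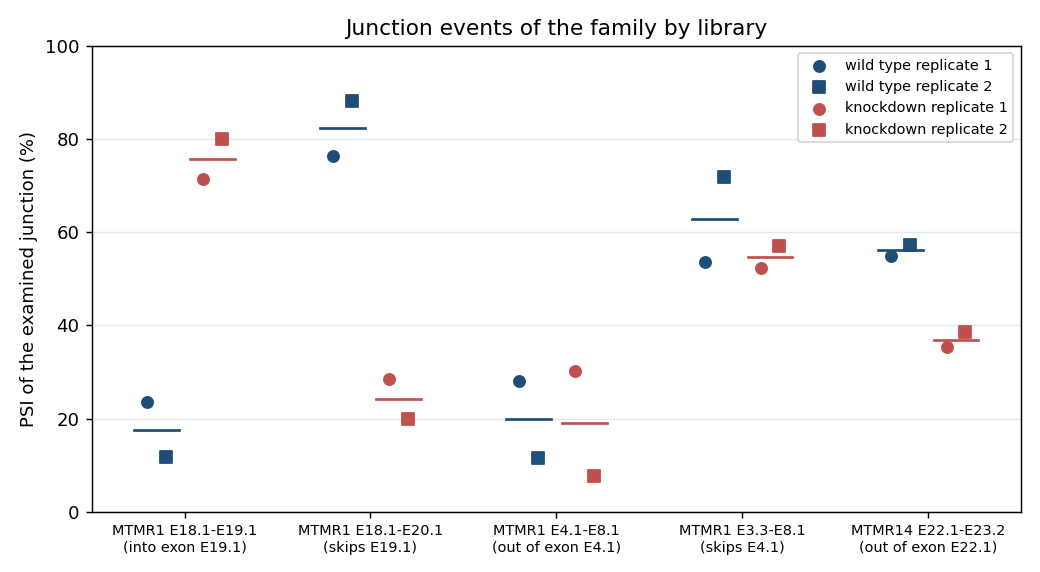
PSI in percent of the 5 examined junctions of the family in each library, with circles for replicate 1, squares for replicate 2, blue for wild type, red for knockdown and a line at each group mean. The groups are apart at both MTMR1 E19.1 junctions and at MTMR14 E22.1, and they overlap at both MTMR1 E4.1 junctions.

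Expression was read as RPKM, reads per kilobase of gene scaled to library depth. Depth was 84.5% to 100.0% of that of the deepest library, wild-type replicate 2, with knockdown replicate 1 the shallowest. RBM10 itself was at 35.5 and 40.8 RPKM in wild type against 11.6 and 10.9 RPKM after knockdown, or 29.5% of the wild-type mean, as the labels give it. The cells carried the epithelial markers KRT8, KRT18, KRT19, CDH1 and EPCAM at 1 RPKM or more (5 of 5), with summed levels of 1228 to 1357 RPKM in wild type and 2448 to 2549 RPKM in knockdown. Of the markers of other cells, the table held 1 of 4 for alveolar type II cells, 1 of 3 for leukocytes, 1 of 3 for endothelium, 2 of 3 for fibroblasts and 0 of 6 for skeletal muscle, and none that it held reached 1 RPKM in any library. In RNA from a whole culture, fewer cells that express a gene and less RNA per cell cannot be told apart.

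The 4 values of each of the 10 members, multiplied by relative depth, stood in the ratio of whole numbers (within 1e-06). The smallest whole numbers that give these ratios ran from 243 for MTMR9 to 4605 for SBF1, so at least that many reads lie behind a value, with a counting error of at most 6.42% and 1.47%.

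Levels in the family spanned a wide range. In wild type the order by mean RPKM was SBF1 (13.4), MTMR14 (8.56), MTMR1 (4.90), MTMR2 (4.50), MTMR12 (3.67), MTMR6 (3.33), MTMR4 (2.52), MTMR10 (1.84), MTMR3 (1.02) and MTMR9 (0.876). The ranges of the 2 libraries overlapped between MTMR1 and MTMR2, between MTMR2 and MTMR12, and between MTMR12 and MTMR6, so these neighbours were not told apart. In knockdown MTMR1, MTMR12, MTMR6, MTMR4 and MTMR2 followed each other from 4.23 to 3.53 RPKM with overlapping ranges at each step, and so did MTMR3 and MTMR9 at 1.05 and 0.957 RPKM. SBF1 alone made up 27.5% to 34.4% of the summed RPKM of the 10 genes, which was 42.8 to 49.1 per library.

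**Figure D4:**
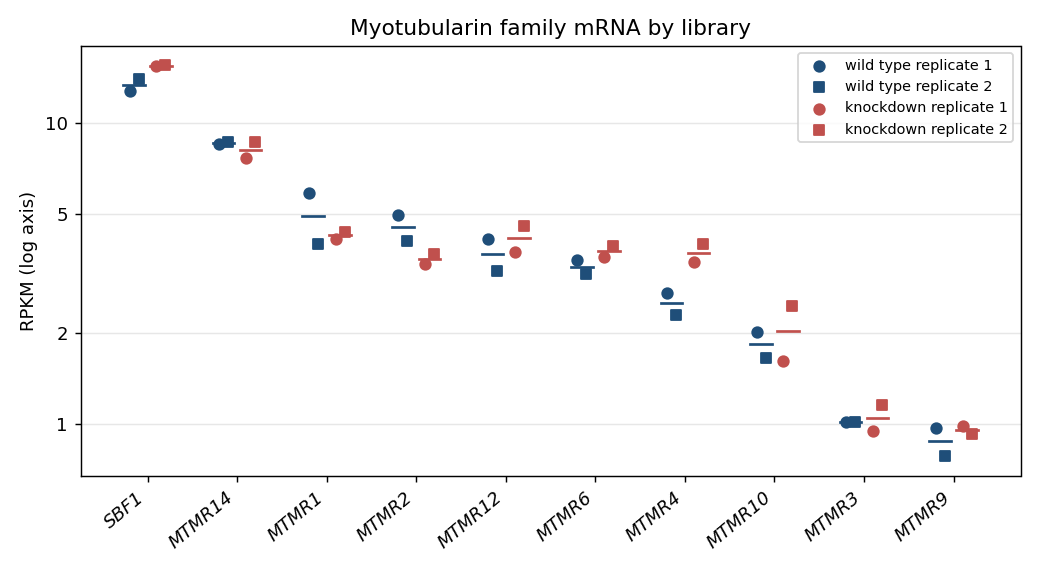
RPKM of the 10 members in each library on a log axis, ordered by the wild-type mean, with circles for replicate 1, squares for replicate 2, blue for wild type, red for knockdown and a line at each group mean. Both red points lie above both blue ones in MTMR4, MTMR6 and SBF1 and below them in MTMR2, and MTMR1 has 1 wild-type library above the other 3.

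Knockdown was compared with wild type on log2(RPKM + 1), a scale that understates changes of genes at low levels, with limma over all genes whose mean reached 1 RPKM in either group. Of the 10 members, 9 entered the test and MTMR9 did not. Of these 9, 1 rose and 0 fell at a Benjamini-Hochberg adjusted p under 0.05, against 22.3% of all 10182 tested genes (15.3% higher and 7.03% lower). At an unadjusted p under 0.05 the count was also 1 higher and 0 lower. The median log2 change of the 9 was 0.09, beside 0.02 over all tested genes. The RPKM of the groups did not overlap in 4 of the 9, beside 61.5% of all tested genes.

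Among the active phosphatases, MTMR1, whose exon is described above, was at 5.84 and 3.96 RPKM in wild type against 4.12 and 4.34 RPKM after knockdown. Wild-type replicate 1 was high, while wild-type replicate 2 was below both knockdown libraries, so the groups overlapped. The log2 change was -0.16 (SE 0.15; limma, adjusted p = 0.50), with a 95% interval from -0.50 to 0.18, and without wild-type replicate 1 it was 0.075. The smallest whole numbers of reads in the ratio of these values, in the same order, were 927, 635, 557 and 665. The gene's mRNA level in knockdown was thus 86.2% of the wild-type mean, a difference within the spread of the wild-type pair. Beside it, the mean PSI of the junction into E19.1 was 17.6% in wild type and 75.7% in knockdown. Only a few reads may lie behind those PSI values, and the exon's far end was not measured.

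MTMR2, which binds SBF1 and is mutated in an inherited demyelinating neuropathy, was at 4.95 and 4.05 RPKM in wild type against 3.39 and 3.68 RPKM after knockdown. Both knockdown libraries were below both wild-type libraries, but the log2 change of -0.27 (SE 0.12) did not pass (limma, adjusted p = 0.144). It passed as lower after quantile normalization (log2 change -0.38, adjusted p = 0.0410).

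MTMR4 carries a FYVE domain, which binds phosphatidylinositol 3-phosphate, and acts on endosomes. It was at 2.73 and 2.30 RPKM in wild type against 3.45 and 3.95 RPKM after knockdown, with both knockdown libraries above both wild-type ones. It rose by 0.42 on the log2 scale (SE 0.12; limma, adjusted p = 0.0351), and the mean in knockdown was 1.47 times that in wild type. The call was lost with no filter on low values (adjusted p = 0.112), after quantile normalization (0.0853), without wild-type replicate 2 (0.145) and without knockdown replicate 2 (0.206).

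MTMR3, the other member with a FYVE domain, was at 1.01 and 1.02 RPKM in wild type against 0.945 and 1.15 RPKM after knockdown, with the wild-type values inside the range of the knockdown ones. Its log2 change of 0.02 (limma, adjusted p = 0.910) turned to -0.19 after quantile and -0.16 after cyclic loess normalization. MTMR6, an active member that pairs with MTMR9, was at 3.52 and 3.15 RPKM in wild type against 3.59 and 3.90 RPKM after knockdown (adjusted p = 0.453). The groups of MTMR6 did not overlap, as in 61.5% of all tested genes. MTMR14 was at 8.49 and 8.63 RPKM in wild type against 7.67 and 8.61 RPKM after knockdown (limma, adjusted p = 0.706). Its mRNA level thus overlapped between the groups, while the PSI of its junction from E22.1 to E23.2 did not.

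The inactive members were SBF1, MTMR9, MTMR10 and MTMR12. SBF1, a partner of MTMR2 that is mutated in a related neuropathy, was at 12.8 and 14.0 RPKM in wild type against 15.5 RPKM in both knockdown libraries. Its groups did not overlap, and the log2 change of 0.20 (SE 0.10) did not pass (limma, adjusted p = 0.208). MTMR12, an adaptor of active myotubularins, was at 4.12 and 3.22 RPKM in wild type against 3.72 and 4.56 RPKM after knockdown (adjusted p = 0.511). MTMR10 was at 2.03 and 1.65 RPKM in wild type against 1.61 and 2.47 RPKM after knockdown (adjusted p = 0.718). In both genes the groups overlapped and knockdown replicate 2 was the highest library. MTMR9, the partner of MTMR6, was at 0.971 and 0.781 RPKM in wild type against 0.985 and 0.928 RPKM after knockdown, below the level needed for the test.

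SBF1, MTMR3, MTMR9, MTMR10 and MTMR12 overlap an annotated gene on the other strand (PPP6R2 at SBF1 and FAN1 at MTMR10), and use of strand in counting is not given in the sources used here. MTMR9 and SBF1 also have related copies in the annotation, MTMR9LP and SBF1P1, that could share reads with them.

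**Figure D5:**
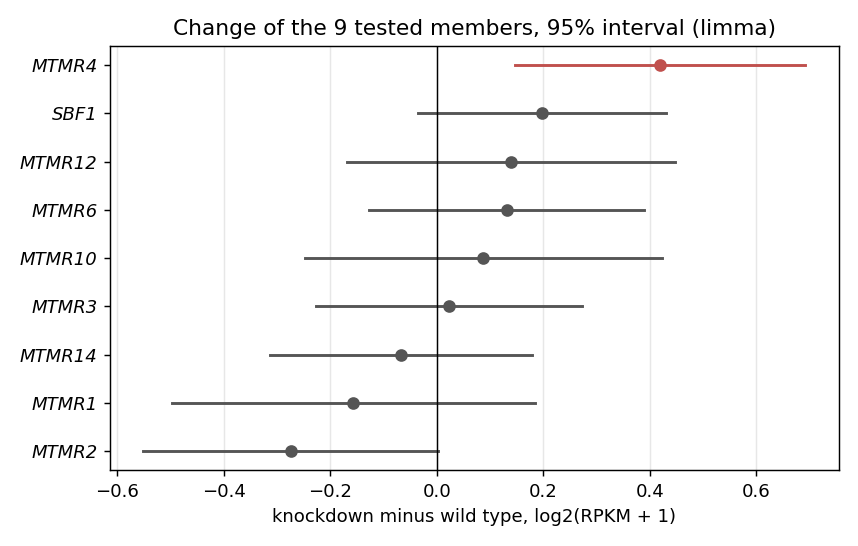
Difference of knockdown minus wild type on the log2(RPKM + 1) scale for the 9 tested members, as points with 95% intervals from limma (n = 2 libraries per group). The interval of MTMR4, in red, lies above 0, and the intervals of the other 8 include 0.

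Of 5 further members of the family, 3 were in the same fit. MTMR7 was not analysed here, and MTMR8, at 0.225 to 0.641 RPKM, was below the level tested. MTMR11, an inactive member, was at 2.79 and 2.46 RPKM in wild type against 5.55 and 5.14 RPKM after knockdown, and rose by 0.81 on the log2 scale (SE 0.12; limma, adjusted p = 0.000999). The groups were also apart in its splicing, where reads into intron I9.1 at the edge of E10.1 were listed at 0% in wild-type replicates 1 and 2 and at 17.7% and 14.1% in knockdown. The MTMR11 junction E9.1 to E10.2 went from 64.5% ± 4.56 to 40.8% ± 6.52 (SD, n = 2 each), and it is also the background of the intron event. Differences at least as large were seen in 43.1% of the 3744 events for the intron and in 15.9% for this junction. MTM1 and SBF2, the founding phosphatase and the close relative of SBF1, did not pass (adjusted p = 0.710 and 0.247).

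Genes that make, bind or remove the same lipids were read as 4 further lists. Of the kinases and cofactors that make phosphatidylinositol 3-phosphate, such as PIK3C3 and BECN1, 0 of 8 tested genes passed, with a median log2 change of 0.09. None of the 3 genes of phosphatidylinositol 3,5-bisphosphate turnover, PIKFYVE, VAC14 and FIG4, passed, with log2 changes between 0.09 and 0.11. Of 27 tested genes whose products bind phosphatidylinositol 3-phosphate or act with it, 1 rose and 0 fell, with a median log2 change of 0.01. The gene that rose was WIPI1, an effector in autophagosome formation, from 2.63 and 2.44 RPKM in wild type to 7.44 and 7.39 RPKM in knockdown (limma, adjusted p = 5.89e-05).

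Of 14 other tested inositol lipid phosphatases, 3 rose and 0 fell, with a median log2 change of 0.15. INPP4B, which removes the 4-phosphate of phosphatidylinositol 3,4-bisphosphate, was at 0.575 and 0.595 RPKM in wild type against 2.08 and 2.26 RPKM after knockdown (limma, adjusted p = 0.000205). Its wild-type mean was under 1 RPKM, so it entered the test only through its level in knockdown, and with no filter on low values its adjusted p was 0.0123. INPPL1, a 5-phosphatase, went from 28.5 and 29.7 RPKM to 37.6 and 35.5 RPKM (limma, adjusted p = 0.0416). INPPL1 lost its call without wild-type replicate 1 (limma, adjusted p = 0.109) or 2 (0.0602), without knockdown replicate 1 (0.286) or 2 (0.134), with no filter on low values (0.0638), with TMM-like scaling (0.0808) and without the trend of variance on level (0.0581). Over these lists and the further family members together, 5 of 55 tested genes rose, INPP4B included, and 0 fell, beside 15.3% higher and 7.03% lower over all 10182 tested genes, and no member of the family other than MTMR4 and MTMR11 passed.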

How the data were processed

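Knockdown and wild-type A549 libraries (2 each) were compared. Per the submitters' processing notes, reads were handled with STAR 2.6.1 on hg38, and the counter, splicing caller and strand setting were not given in the sources used here. Gene values were deposited by the authors as RPKM, a unit inferred from the values, and PSI as a fraction, per the file headers. Relative depth was the most frequent ratio other than 1 between libraries among genes under 3 RPKM. Names were found for 16921 of 17041 gene IDs. RPKM were compared with limma 3.58.1 in R 4.3.3 (log2 with a pseudocount of 1, trend, no covariate, two-sided, Benjamini-Hochberg adjustment over all tested genes), after a check on simulated data. PSI were described without a test. Exons and sequences come from GENCODE v29 (hg38), whose exon ends matched 10 of 10 junction ends of MTMR1 and MTMR14. All members and events were named, with up to 4 genes past the test per further list; 1 gene counted in a further list is not reported here. Members and lists were chosen with earlier results of these data known. Scaling, pseudocount, filter, trend, replicate block and single libraries were varied.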

Additional observations from a re-analysis of the deposited data

How the results depend on the processing

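Of the 9 tested members, MTMR4 was the one called. The count of higher members was 0 with no filter on low values, after quantile normalization and with a replicate block, and 0 to 1 with 1 library left out; MTMR4 then had an adjusted p of 0.0823 in limma with the block, and INPPL1 0.172. The count of lower members was 1 (MTMR2) after quantile normalization. Of the further lists, the count of higher genes was 3 with the block and 4 with no filter on low values. Those 4 included INPP5D, which was under 1 RPKM in every library and did not enter the main test, and not INPPL1. The count of lower genes was 2 (NRBF2, PIK3R4) after quantile normalization. Replicate numbers share only a number in the labels: replicate differences correlated at -0.444 over 10182 genes, and the block changed the calls of all genes from 1555 higher and 716 lower to 1280 and 438. Directions of small changes turned in 10 of 99 comparisons. With 1 library left out, the log2 change lay between -0.39 and 0.075 for MTMR1, -0.052 and 0.096 for MTMR3, -0.12 and 0.29 for MTMR10, -0.0012 and 0.28 for MTMR12, and -0.14 and 0.0072 for MTMR14. The sign turned without wild-type replicate 1 in MTMR1, without knockdown replicate 2 in MTMR3 and MTMR10, without wild-type replicate 2 in MTMR10 (-0.0076) and MTMR12, and without knockdown replicate 1 in MTMR14. It also turned in MTMR3 after quantile (-0.19) and cyclic loess normalization (-0.16), and in MTMR10 after the same (-0.048 and -0.029). The cause was not tested. With 1 library left out, the difference of the MTMR1 junction into E19.1 was 52.2 to 63.9 points, that of its partner -63.9 to -52.2 and that of MTMR14 -20.7 to -17.5, while those of E4.1-E8.1 (-12.2 to 10.4) and E3.3-E8.1 (-17.2 to 1.02) changed sign. The nearest libraries of the groups were 47.9 points apart at the junction into E19.1, -47.9 at its partner and -16.3 at MTMR14. At E4.1-E8.1 and E3.3-E8.1 the groups overlapped. There the highest knockdown library lay above the lowest wild-type library, by 18.8 and 3.46 points. Inclusion as a share of both junctions could not be formed for MTMR14, whose skipping junction is listed only as background.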
